A study of Mus musculus with 7 samples.

Results

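The enzymes that cut the extracellular matrix and the inhibitors that hold them in check were followed through single cells of the mouse pancreas in control mice, in mice undergoing partial reprogramming and in mice with caerulein-induced pancreatitis. Every gene whose symbol begins with Mmp, Timp or Adamts, followed by digits and at most 1 letter, was taken from the count tables, which gave 45 genes of the 33864 genes listed. They were 22 matrix metalloproteinases (Mmp), 4 tissue inhibitors of metalloproteinases (Timp) and 19 secreted proteinases with thrombospondin motifs (Adamts). Of these, 41 were listed for WT, 45 for i4F and 43 for caerulein mice. Mmp1a and Mmp1b were listed in the i4F table alone, and Mmp10 and Mmp20 were missing from the WT table. A gene without a row was counted as 0.

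Each of the 7 mice gave 1 droplet 3′ library, so the mouse was the replicate. The 2 WT and 3 i4F mice drank doxycycline at 1 mg/ml for 7 days, and the 2 caerulein mice had a wild-type genotype and received 100 µg/kg caerulein, a cholecystokinin analogue that inflames the exocrine pancreas, in 7 injections a day on 2 days and were killed on day 4. All were labelled as C57BL/6 and 2 months old, the methods give the i4F strain a C57BL/6J.Ola.Hsd background, and the labels give no doxycycline for the caerulein mice, so that the WT mice differed from them by doxycycline as well as by caerulein. The i4F mice carried a doxycycline-inducible cassette of the Yamanaka factors at Pparg and the transactivator at Rosa26, a locus that is active in most cell types, which does not restrict the factors to 1 cell type. Library names began with one prefix for WT mouse 1 and the i4F mice and with another for WT mouse 2 and the caerulein mice.

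Matrix metalloproteinases are made as inactive precursors, secreted or held at the cell surface, and cut collagens, proteoglycans, growth factors and one another. The Timp proteins block their active site, with Timp3 also acting on many Adamts enzymes, which trim procollagens, cleave proteoglycans such as versican and aggrecan, or bind to microfibrils. In the pancreas, stellate cells are the fibroblast-like source of most matrix and of much of the machinery that turns it over, and macrophages and neutrophils bring collagenases, elastase and gelatinases of their own.

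The stretches before Timp1 and 5 of the Mmp genes described below are shown first, because these Mmp genes lie on 1 chromosome within 1 run while Mmp7, Mmp3 and the pair of Mmp12 and Mmp13 had their highest WT levels in different cell types. Mmp10, a scarce member, is shown as the neighbour of Mmp3. Mmp13, Mmp12, Mmp1b, Mmp3, Mmp1a, Mmp10, Mmp8, Mmp27, Mmp20 and Mmp7 form 1 run on chromosome 9, from the start of Mmp13 (chr9:7272514-7283333) to the end of Mmp7 (chr9:7692090-7699585), and Timp1 lies on the X chromosome (chrX:20870166-20874737, GRCm38.p6). RefSeq promoters were found for 31 of the 45 members. The 250 bases before each start were searched on both strands for TGANTCA, for TATAAA, the TATA box, and for AGGAAG, an ETS core. TGANTCA covers the core of the AP-1 site, TGAGTCA or TGACTCA, and looser forms. TGANTCA stood in 8 of 34 promoters of members, 23.5%, against 6.75% of all 32851 promoters, and in 8 of the 10 genes of the chromosome 9 run. TGANTCA and TATAAA occurred together in 7 member genes, all in that run, and in 1.21% of all promoters. Mmp20 is in both counts of the run with TGAATCA, a looser form. Mmp12 is counted for TGANTCA only through a start inside the gene. AGGAAG stood in 38.2% of the promoters of members and 29.5% of all. The 130 bases before the start are given 5′ to 3′ on the plus strand, with each match in capitals, and no 2 matches overlapped.
Timp1, chrX:20870036-20870165: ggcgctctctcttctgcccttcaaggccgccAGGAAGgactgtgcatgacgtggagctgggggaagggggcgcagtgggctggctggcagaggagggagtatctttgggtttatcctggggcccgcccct
Mmp7, chr9:7691960-7692089: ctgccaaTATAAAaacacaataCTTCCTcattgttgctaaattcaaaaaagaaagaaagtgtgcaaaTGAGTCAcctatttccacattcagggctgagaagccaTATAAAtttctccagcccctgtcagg
Mmp3, chr9:7445692-7445821: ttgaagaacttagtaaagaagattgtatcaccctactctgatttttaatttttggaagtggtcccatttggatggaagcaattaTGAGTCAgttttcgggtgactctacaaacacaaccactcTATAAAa
Mmp10, chr9:7502212-7502341: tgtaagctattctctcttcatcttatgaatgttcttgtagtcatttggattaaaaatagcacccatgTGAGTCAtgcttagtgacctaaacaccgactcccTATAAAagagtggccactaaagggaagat
Mmp13, chr9:7272384-7272513: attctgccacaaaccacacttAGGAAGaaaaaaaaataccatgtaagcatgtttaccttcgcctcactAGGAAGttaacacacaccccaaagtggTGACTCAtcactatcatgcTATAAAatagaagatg
Mmp12, chr9:7344267-7344396: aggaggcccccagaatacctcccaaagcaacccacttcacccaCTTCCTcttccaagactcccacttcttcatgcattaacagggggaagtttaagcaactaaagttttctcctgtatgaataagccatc
Mmp12, chr9:7347244-7347373: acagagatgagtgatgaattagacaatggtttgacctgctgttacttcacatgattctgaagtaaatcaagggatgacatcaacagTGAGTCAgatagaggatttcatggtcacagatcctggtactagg
The second Mmp12 stretch precedes a start inside the gene. Mmp7, Mmp3, Mmp10 and Mmp13 held TGAGTCA or TGACTCA with TATAAA closer to the start. The Timp1 stretch held AGGAAG and neither of the others. A match describes the letters in this window and does not show that a factor binds there.

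The libraries held 4327 to 15138 cells and 15469018 to 64784216 unique molecular identifiers (UMIs) each, and any pair shared 3 to 39 cell barcodes. The deposited labels were used to sum UMIs per mouse over stellate, endothelial, ductal, acinar and macrophage cells, and values are counts of the gene per 1000000 UMIs of that class and mouse (CPM). In 3′ counting each transcript is counted once whatever its length, so length does not bias CPM between genes. Whether different genes are captured equally well was not tested, so levels of different genes compare only roughly. Labels led by markers of another listed cell type were left out of a class. Those were the WT label of activated stellate cells, led by smooth muscle genes such as Acta2 and Myh11, and the macrophage labels led by neutrophil or dendritic genes. The second i4F acinar label was kept in the acinar class, although keratinization genes such as Sprr2b and Krt13 led it and no acinar marker was among its leading genes. Library i4F 3 stood apart. Of its stellate cells, 8.83% carried the first activated label, against 96.7% and 95.3% in the other i4F mice, and 91.2% carried the second, whose leading genes include the mesothelial Upk3b. The i4F annotation has no mesothelium label, whereas WT and caerulein mesothelium has its own and stayed out of the stellate class. The part of mesothelial cells in the i4F stellate values was not tested. Leaving library i4F 3 out lost no call of a member and added many, in caerulein mice too, since all mice share the estimate of the spread. Counts of called members in each class are therefore given with and without it, as are many of the single contrasts whose call it changed. Each mouse was left out in turn, and this library was singled out after seeing the data. The p-values without it are thus no independent support for a call. WT mouse 1 had 45 macrophages and WT mouse 2 had 418, and library i4F 3 had 183.

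Of the 45 members, 30 reached 20 CPM in some label of some library and 15 did not. The stromal labels held most of them. In WT mice, 16 of these 30 genes were highest in a stellate label, 5 in a macrophage label, 3 in ductal cells, 2 in endothelial labels, 2 in mesothelium, 1 in the endocrine cells and 1 in the label named lymph nodes, which lymphatic endothelial genes lead. For a gene shared by stellate and smooth muscle cells this count depends on the WT activated label, which was counted as stellate here although smooth muscle genes led it.

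**Figure D1:**
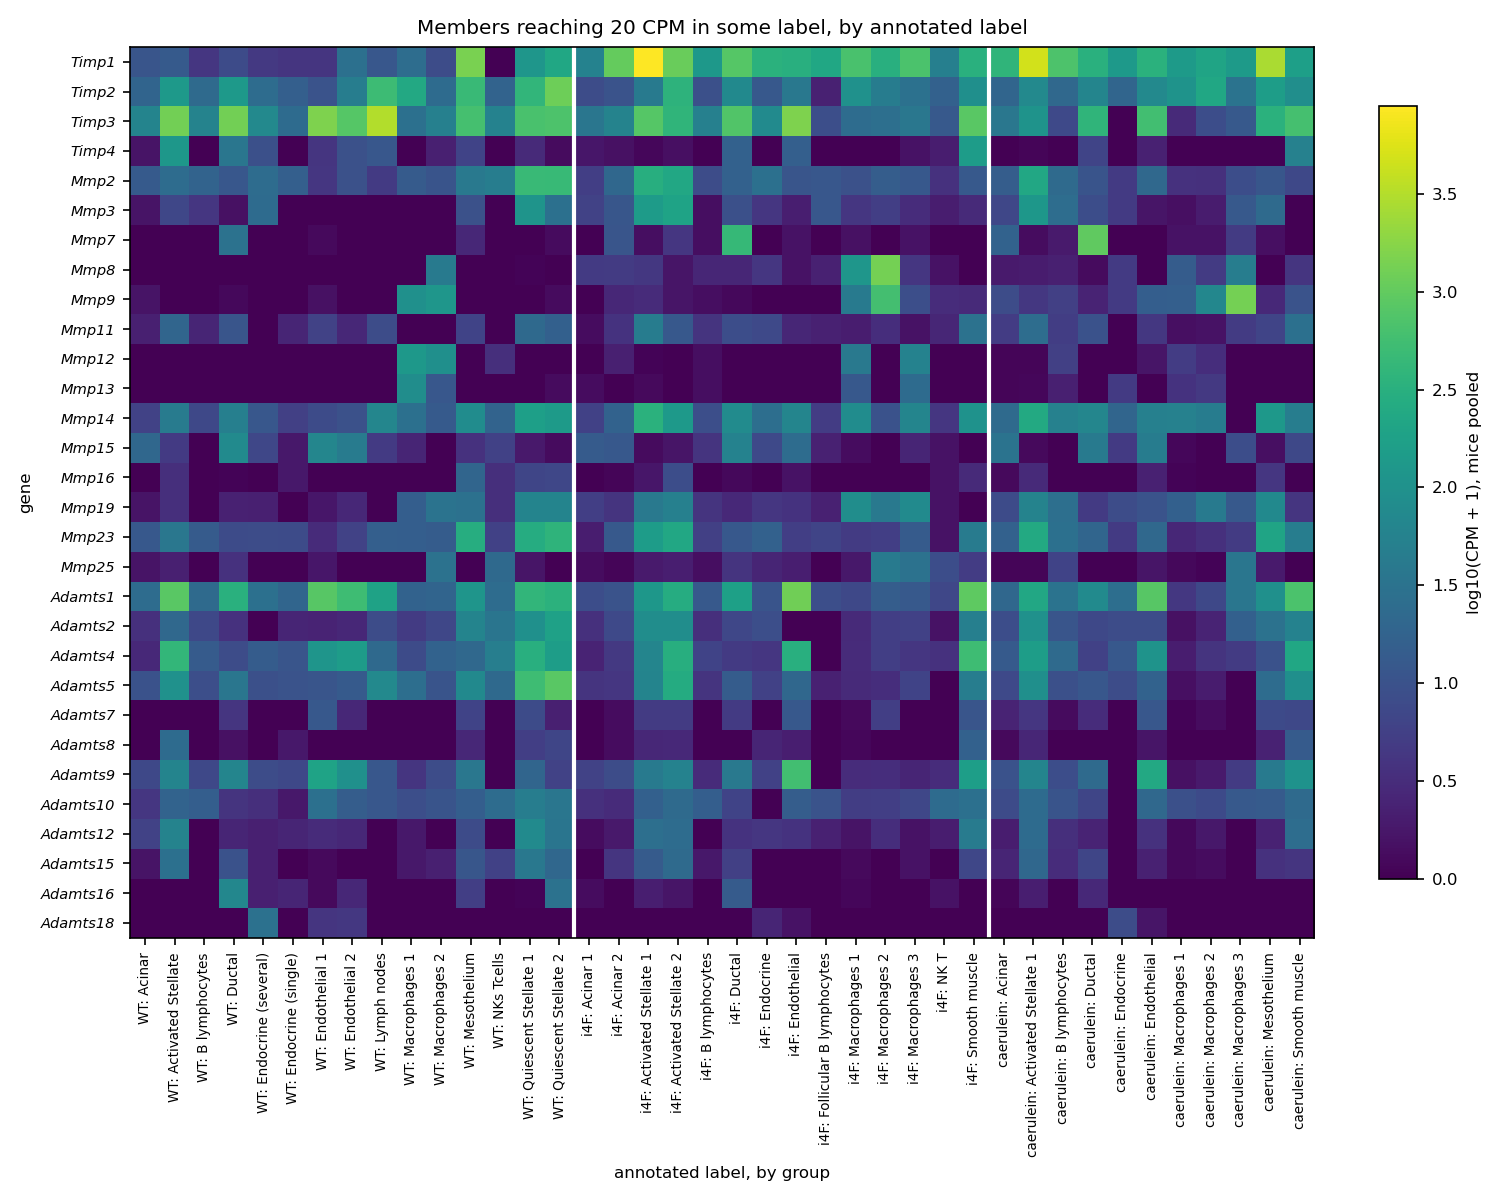
Level of the 30 members that reached 20 CPM in some label, as log10(CPM + 1) with the mice of a group pooled, in every annotated label of WT, i4F and caerulein pancreata (white lines separate the groups). Timp1 is brightest in the first activated stellate label of i4F mice, Mmp7 in ductal cells, and Mmp8, Mmp9, Mmp12 and Mmp13 in macrophage labels. The WT endocrine labels are named by whether they list several hormone cell types or a single one.

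Some epithelial members had most of their WT UMIs in 1 compartment. Mmp7, the epithelial matrilysin, had 98.7% of its UMIs in ductal cells of WT mice, 93.5% in i4F and 95% in caerulein mice. Adamts16 had 85.8% of its WT UMIs in ductal cells, but 39.6% in i4F and 12.8% in caerulein mice, where the first activated stellate label held 54.7% and 85.1%. It stood at 65.8 CPM in WT ductal cells and 29.7 CPM in the second quiescent stellate label, whereas the first quiescent label had 0 and 0.15 CPM in the WT mice. Timp4 was shared by ductal and smooth muscle cells. Its level was highest in the smooth muscle label of i4F mice, at 152 CPM, and of caerulein mice, at 53 CPM, whereas ductal cells held 68.9% of its UMIs in WT, 35.7% in i4F and 42.9% in caerulein mice. Adamts18 had 63.2% of its WT UMIs in the endocrine label that lists several cell types.

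Blood vessels and leucocytes had their own sets. Adamts9, a versican-cleaving enzyme, was highest in endothelial cells in all 3 groups, at 194 CPM in the main WT endothelial label, 575 CPM in i4F and 243 CPM in caerulein mice. Timp3, which binds to the matrix, reached 3129 CPM in the WT lymph node label and 1557 CPM in the main endothelial one. Mmp12, the macrophage elastase, had 67.9% of its WT UMIs in the macrophage class and most of the rest, 31.7%, in the macrophage label led by dendritic and monocyte genes. Mmp25, a membrane-anchored enzyme of leucocytes, was highest at 40.2 CPM in the neutrophil-led macrophage label of i4F mice and 34.6 CPM in that of caerulein mice.

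Smooth muscle and fibroblasts divided most of the others. Adamts4, an aggrecanase, was highest in the smooth muscle labels, at 527 CPM in i4F and 221 CPM in caerulein mice, and at 409 CPM in the WT activated label that smooth muscle genes lead. Adamts8 followed the same labels at a lower level, with no label of any library above 30.6 CPM. Mmp23 and the procollagen N-proteinase Adamts2 were highest in stellate labels of all 3 groups and reached 411 and 226 CPM in a single library. Neither passed a stellate contrast with all mice, and Mmp23 did without library i4F 3 in i4F against WT mice (log2 fold change -0.96, adjusted p = 0.00412) and against caerulein mice (log2 fold change -0.87, adjusted p = 0.0234). Adamts10, Adamts15 and Mmp11, or stromelysin-3, reached 60.2, 43.8 and 51.9 CPM, and Adamts7 reached 24.4 CPM, with endothelial labels highest in all 3 groups when mice were pooled. Mmp16 reached 20.4 CPM and was highest in mesothelium of WT and caerulein mice. In stellate cells of i4F mice some of these passed only without library i4F 3, lower for Adamts4 (log2 fold change -2.07, adjusted p = 0.000153), Adamts10 (log2 fold change -1.55, adjusted p = 0.00159), Adamts15 (log2 fold change -1.22, adjusted p = 0.00825) and Mmp16 (log2 fold change -2.65, adjusted p = 0.000765) and higher for Mmp11 (log2 fold change 1.15, adjusted p = 0.0147).

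Timp1, the inducible soluble inhibitor, was the member with the largest number of UMIs, 813807 over the 7 libraries. Its stellate level was 199.8 and 113 CPM in WT, 8515, 9282 and 2788 CPM in i4F, and 4832 and 4757 CPM in caerulein mice. Both treated groups lay wholly above WT. The increase passed the test in i4F (log2 fold change 5.60, SE 0.65, adjusted p = 0.0153; edgeR quasi-likelihood test with Benjamini-Hochberg adjustment over all genes of the class, used throughout) and in caerulein mice (log2 fold change 5.09, SE 0.65, adjusted p = 0.0136). Within the first activated stellate label the i4F mice had 8629.9, 9466 and 9074 CPM. Timp1 was itself among the leading genes of that label, so likeness between mice inside it is partly built in. Library i4F 3 had 113 cells there. In the second activated label the i4F mice had 2382, 1700.3 and 689 CPM.

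**Figure D2:**
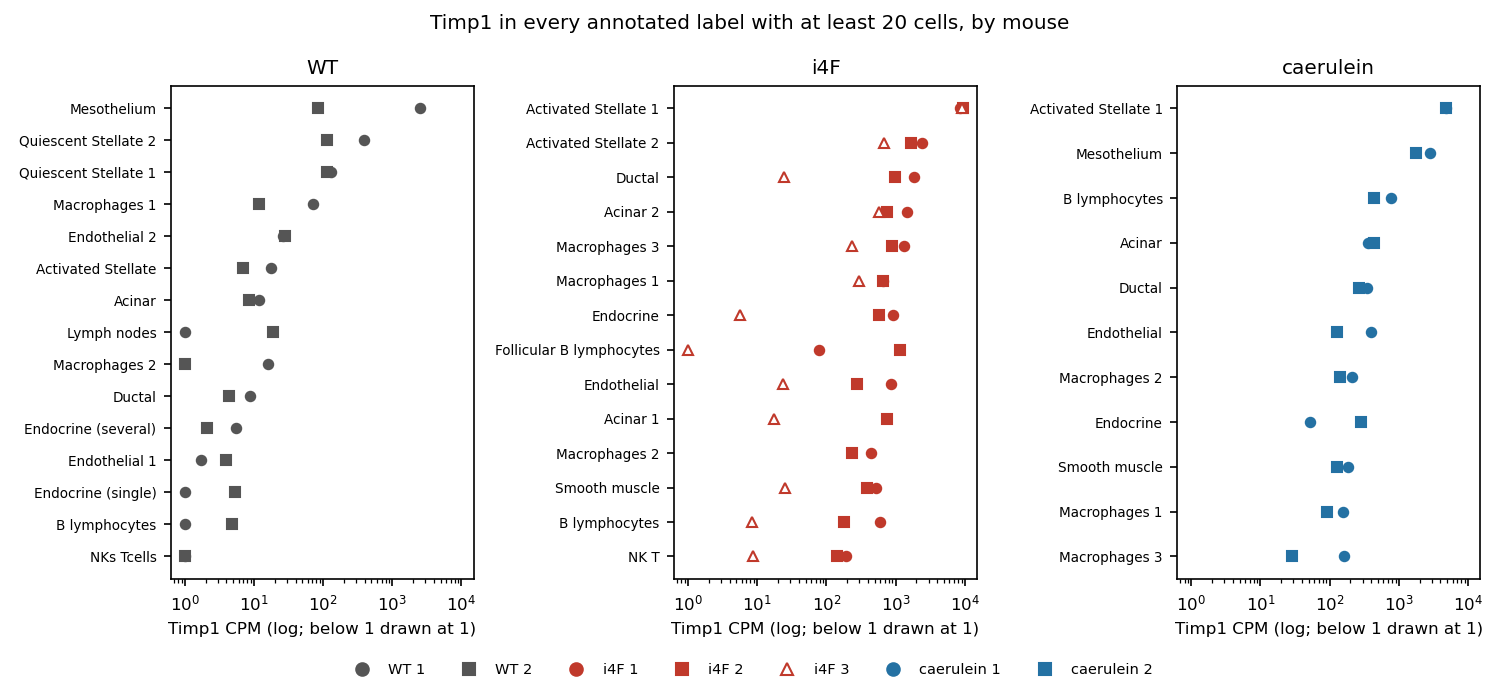
Timp1 CPM on a log axis in each annotated label with at least 20 cells; each point is 1 mouse, and levels below 1 CPM are drawn at 1. In the first activated stellate label, which has Timp1 among its leading genes, the i4F mice lie close together, from 8629.9 to 9466 CPM. In the lymphocyte, ductal, endothelial and endocrine labels library i4F 3 (open triangles) lies far below the other i4F mice.

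Mesothelium, a label absent from the i4F annotation, was the other high source in WT and caerulein mice. In WT mice it had 43.2% of the Timp1 UMIs, at 2489 CPM in mouse 1 and 84 CPM in mouse 2, and in caerulein mice it stood at 2871 and 1801 CPM. In ductal, endothelial, acinar and macrophage cells each treated mouse had more Timp1 than both WT mice. The ductal level was 8.77 and 4.3 CPM in WT, 1835, 974 and 24.1 CPM in i4F, and 344 and 268 CPM in caerulein mice. The endothelial level was 6.2 and 6.09 CPM in WT, 851, 282 and 23.4 CPM in i4F, and 393 and 127 CPM in caerulein mice. Neither passed the test (ductal i4F adjusted p = 0.19, caerulein 0.0747, endothelial i4F 0.0806, caerulein 0.0623), and library i4F 3 lay between WT and the other i4F mice in both classes. All 4 contrasts passed without that library, in ductal cells of i4F (log2 fold change 7.93, adjusted p = 0.000135) and caerulein mice (log2 fold change 5.69, adjusted p = 0.000195) and in endothelial cells of i4F (log2 fold change 6.53, adjusted p = 0.00271) and caerulein mice (log2 fold change 5.56, adjusted p = 0.00308). In macrophages it was 71.1 and 11.9 CPM in WT, 662, 659 and 292 CPM in i4F, and 176 and 102 CPM in caerulein mice, which passed in i4F (log2 fold change 4.17, SE 0.75, adjusted p = 0.0199) and not in caerulein mice (adjusted p = 0.0962). Between the treatments it passed in macrophages only without library i4F 3 (adjusted p = 0.0766 with it and 0.0327 without it). Over the alternative settings the log2 fold change of Timp1 in i4F macrophages ran from 3.09 to 5.69. The monocyte marker sums, given below, were also higher in every i4F mouse than in both WT mice, and their part was not tested. Over all cells Timp1 stood at 160 and 52.9 CPM in WT and 6360, 5952 and 773 CPM in i4F mice. In caerulein mice it stood at 2319 and 2229 CPM. The part of free RNA from other cells in the ductal, endothelial, acinar and macrophage levels was not tested.

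Lymphocytes of treated mice also carried Timp1 UMIs. The i4F B cells had 594, 183 and 8.3 CPM and the i4F natural killer and T cells 191, 142 and 8.83 CPM, whereas WT natural killer and T cells had 0 in both mice. In each i4F mouse the endothelial and macrophage levels were above those of both lymphocyte labels. Library i4F 3 had the lowest lymphocyte levels and the lowest level over all stellate cells, 2788 CPM. In the first activated label, which has Timp1 among its leading genes, it was not the lowest. The part of free RNA in these levels was not tested.

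Timp2, the inhibitor that also helps Mmp14 to activate Mmp2, was lower in the stellate cells of each treated mouse. Its level was 622 and 577 CPM in WT, 40.5, 52.1 and 334 CPM in i4F, and 67.8 and 85.8 CPM in caerulein mice. Neither contrast passed the test (log2 fold change -1.93, adjusted p = 0.136 in i4F, log2 fold change -2.84, adjusted p = 0.0888 in caerulein mice). Both passed without library i4F 3 (log2 fold change -3.59, adjusted p = 6.17e-05 in i4F, log2 fold change -2.82, adjusted p = 0.000182 in caerulein mice), as did the comparison between the treatments, whose direction turned (log2 fold change 0.92 with it, log2 fold change -0.76, adjusted p = 0.0365 without it). In WT mice the second quiescent stellate label was the richest, at 1099 and 1227 CPM. In endothelial cells Timp2 stood at 19.1 and 9.75 CPM in WT, 34, 24.4 and 48.1 CPM in i4F, and 72.1 and 66.7 CPM in caerulein mice, and it rose in caerulein mice (log2 fold change 2.40, SE 0.41, adjusted p = 0.0131). Macrophages themselves had 174 and 265 CPM in WT, 110.2, 82.4 and 144 CPM in i4F, and 143 and 143 CPM in caerulein mice, lower in i4F mice only without library i4F 3 (log2 fold change -1.06, adjusted p = 0.0421). In the endothelial class all 8 macrophage markers were detected in each group, and their sum was 50.1 and 63 CPM in WT, 161 to 497 CPM in i4F and 2168 to 3849 CPM in caerulein mice, and their part in the result was not tested.

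Timp3 fell in stellate cells of caerulein mice. It was 760 and 613 CPM in WT, 952, 540.1 and 473 CPM in i4F, and 99.7 and 128 CPM in caerulein mice. The caerulein mice lay below all others (log2 fold change -2.47, SE 0.37, adjusted p = 0.0165), and the i4F mice overlapped WT (log2 fold change 0.07, adjusted p = 0.88). The direct comparison of i4F with caerulein mice did not pass (log2 fold change 2.54, adjusted p = 0.0514). It passed without library i4F 3 (log2 fold change 2.69, SE 0.29, adjusted p = 0.00561). The ductal level was 1435 and 1052 CPM in WT, 403, 584 and 1085 CPM in i4F, and 360.4 and 435 CPM in caerulein mice, and the endothelial level was 1707 and 1249 CPM in WT, 1304, 1554 and 1663 CPM in i4F, and 507 and 838 CPM in caerulein mice. Both were lowest in a caerulein mouse, and neither caerulein contrast passed with all mice (adjusted p = 0.0794 and 0.0893). Both passed without library i4F 3 (log2 fold change -1.48, adjusted p = 0.00266 and log2 fold change -1.07, adjusted p = 0.0338), as did the ductal contrast of i4F mice (log2 fold change -1.14, adjusted p = 0.00877). Timp4 had its highest class level in ductal cells, 37.8 and 30.6 CPM in WT, 4.8, 6.17 and 27.9 CPM in i4F, and 4.03 and 9.84 CPM in caerulein mice, and passed no contrast with all mice. It passed without library i4F 3 in ductal cells of i4F (log2 fold change -2.47, adjusted p = 0.00434) and caerulein mice (log2 fold change -2.37, adjusted p = 0.0032) and in stellate cells (adjusted p = 0.00636 and 0.0121), lower in each, and in endothelial cells of i4F mice, higher (log2 fold change 2.46, adjusted p = 0.0209). Endothelial Timp4 was scarce, with 17 UMIs over the WT and 26 over all i4F mice.

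**Figure D3:**
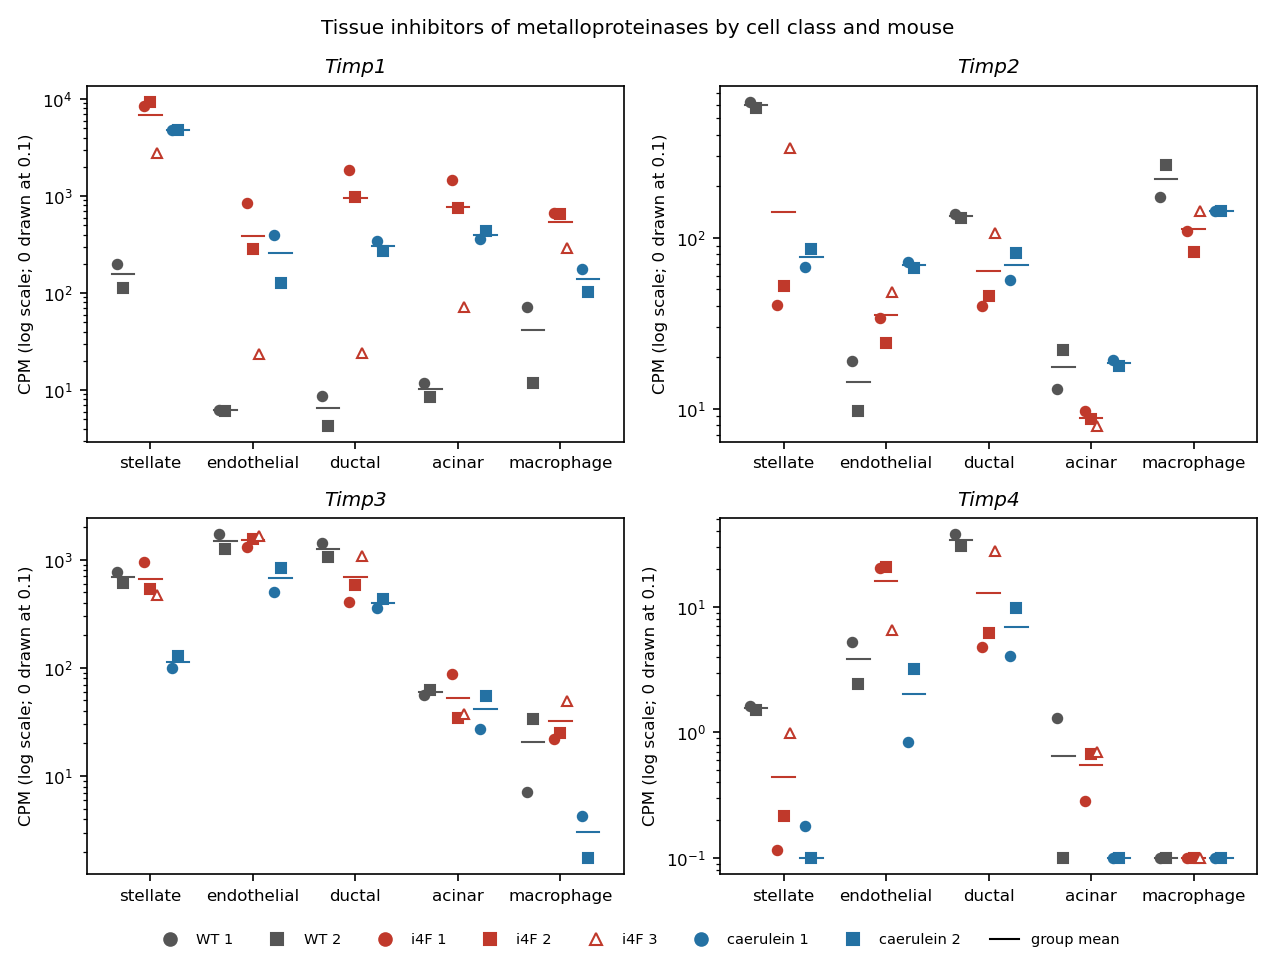
CPM of the 4 Timp genes on log axes in the 5 cell classes; each point is 1 mouse, each bar the group mean, and a level of 0 is drawn at 0.1. Timp1 is higher in every treated mouse than in WT in all classes, Timp2 is lower in every treated mouse in stellate cells, and Timp3 in stellate cells is lower in caerulein mice than in the other groups.

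In stellate cells 30 members passed the filter on low counts and 15 did not. In i4F mice 7 of the 30 were called: 5 rose and 2 fell, beside 11.8% of all 14583 genes higher and 7.86% lower (19.6% in either direction). In caerulein mice 5 rose and 4 fell, beside 9.37% higher and 5.94% lower (15.3% in either direction). Their median log2 fold change was -0.45 in i4F and -0.32 in caerulein mice, against 0.02 and -0.03 over all genes tested. No test set the members against other genes. Both contrasts share the WT mice. Without library i4F 3, 22 of 36 members were called in i4F mice, 8 higher and 14 lower, beside 47.0% of all genes, and 17 of 36 in caerulein mice, 6 higher and 11 lower, beside 38.6%. Between i4F and caerulein mice 0 of 30 members were called by edgeR, beside 0.158% of genes; 2 had an unadjusted p under 0.05, beside 17% of genes, and DESeq2 called 2, beside 5.49%. The same comparison without library i4F 3 called 8 of 36, 2 higher and 6 lower in i4F mice, beside 11.6% of genes.

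Among the stellate members that rose in both treated groups was Adamts9, at 10.5 and 17.5 CPM in WT, 40.2, 39.2 and 55.2 CPM in i4F, and 59.7 and 66 CPM in caerulein mice (log2 fold change 1.78, adjusted p = 0.0231 in i4F, log2 fold change 2.26, adjusted p = 0.0165 in caerulein mice). The groups did not overlap. Against the WT activated label alone, which smooth muscle genes lead and which had 71.3 and 50.6 CPM of Adamts9, the i4F difference turned to -0.13 (adjusted p = 0.769). The pericyte and smooth muscle markers themselves summed to 210 and 247 CPM in WT, 783 to 2532 CPM in i4F and 1555 to 1764 CPM in caerulein stellate cells, with all 6 markers detected in each group, and their part in the result was not tested. Adamts6, which acts on microfibrils, rose from a low level, 1.82 and 1.15 CPM in WT, 9.81, 5.83 and 3.71 CPM in i4F, and 5.16 and 6.53 CPM in caerulein mice (log2 fold change 2.34, adjusted p = 0.0281 and log2 fold change 2.13, adjusted p = 0.0392). Adamts14, a procollagen N-proteinase, rose in caerulein mice (log2 fold change 1.34, adjusted p = 0.043), at 5.05 and 3.11 CPM in WT, 2.38, 3.37 and 2.23 CPM in i4F, and 7.77 and 10.9 CPM in caerulein mice. It did not pass in i4F mice (log2 fold change -0.43, adjusted p = 0.337) or between the treatments (log2 fold change -1.77, adjusted p = 0.0623), and the latter passed without library i4F 3 (adjusted p = 0.0155).

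The members that fell included Adamts12, which stood at 83.3 and 54.8 CPM in WT, 30.1, 18.8 and 32.7 CPM in i4F, and 22 and 25.8 CPM in caerulein mice (log2 fold change -1.19, adjusted p = 0.0347 in i4F, log2 fold change -1.39, adjusted p = 0.0365 in caerulein mice), and Adamts16, at 7.08 and 7.48 CPM in WT, 1.32, 0.82 and 0.742 CPM in i4F, and 1.18 and 0.932 CPM in caerulein mice (log2 fold change -2.70, adjusted p = 0.0198 and log2 fold change -2.60, adjusted p = 0.0175). Every treated mouse lay below both WT mice for these genes. Mmp2, the gelatinase that stellate cells make in quantity, fell in caerulein mice (log2 fold change -0.94, adjusted p = 0.0353), at 554 and 429.8 CPM in WT, 289, 288 and 343 CPM in i4F, and 229 and 238 CPM in caerulein mice, and did not pass in i4F mice (log2 fold change -0.54, adjusted p = 0.0845) other than without library i4F 3 (log2 fold change -0.65, adjusted p = 0.0112). The Mmp2 result reversed when only the WT activated label stood for stellate cells (log2 fold change 3.56, adjusted p = 0.000846), a label with 30.6 and 18.4 CPM of Mmp2.

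Adamts5, an aggrecanase, was 562 and 631 CPM in WT, 53.8, 70.6 and 296 CPM in i4F, and 91.3 and 97.3 CPM in caerulein mice. Every treated mouse was below WT. It did not pass the test (log2 fold change -1.95, adjusted p = 0.0824 in i4F, log2 fold change -2.54, adjusted p = 0.0699 in caerulein mice) and did without library i4F 3 (log2 fold change -3.16, adjusted p = 0.000125 in i4F, log2 fold change -2.52, adjusted p = 0.000412 in caerulein mice). In the first activated label library i4F 3 had 92.9 CPM, near the other i4F mice at 54.2 and 70.6 CPM, and in the second 364 CPM. Mmp14, the membrane-bound collagenase, had 123 and 187 CPM in WT, 374, 249 and 173 CPM in i4F, and 261 and 207 CPM in caerulein mice (adjusted p = 0.129 in i4F and 0.24 in caerulein mice), and passed in i4F mice without library i4F 3 (log2 fold change 1.09, adjusted p = 0.0324). Adamts1, which cleaves hyaluronan-binding proteoglycans, had 429.6 and 365 CPM in WT, 114, 137 and 287 CPM in i4F, and 218 and 269 CPM in caerulein mice (adjusted p = 0.106 and 0.361), and was lower without library i4F 3 in i4F (log2 fold change -1.55, adjusted p = 0.000533) and caerulein mice (log2 fold change -0.56, adjusted p = 0.0291). Mmp3, a stromelysin of fibroblasts, had 132 and 65.2 CPM in WT, 82.1, 249 and 264 CPM in i4F, and 116 and 144 CPM in caerulein mice, with overlapping groups. Its neighbour Mmp10, also a stromelysin, had 0 UMIs in WT stellate cells, 73 in i4F mice, of which library i4F 3 gave 0, and 11 in caerulein mice, at least 4.71-fold and at least 1.41-fold higher than a floor of 3 UMIs over the WT mice.

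**Figure D4:**
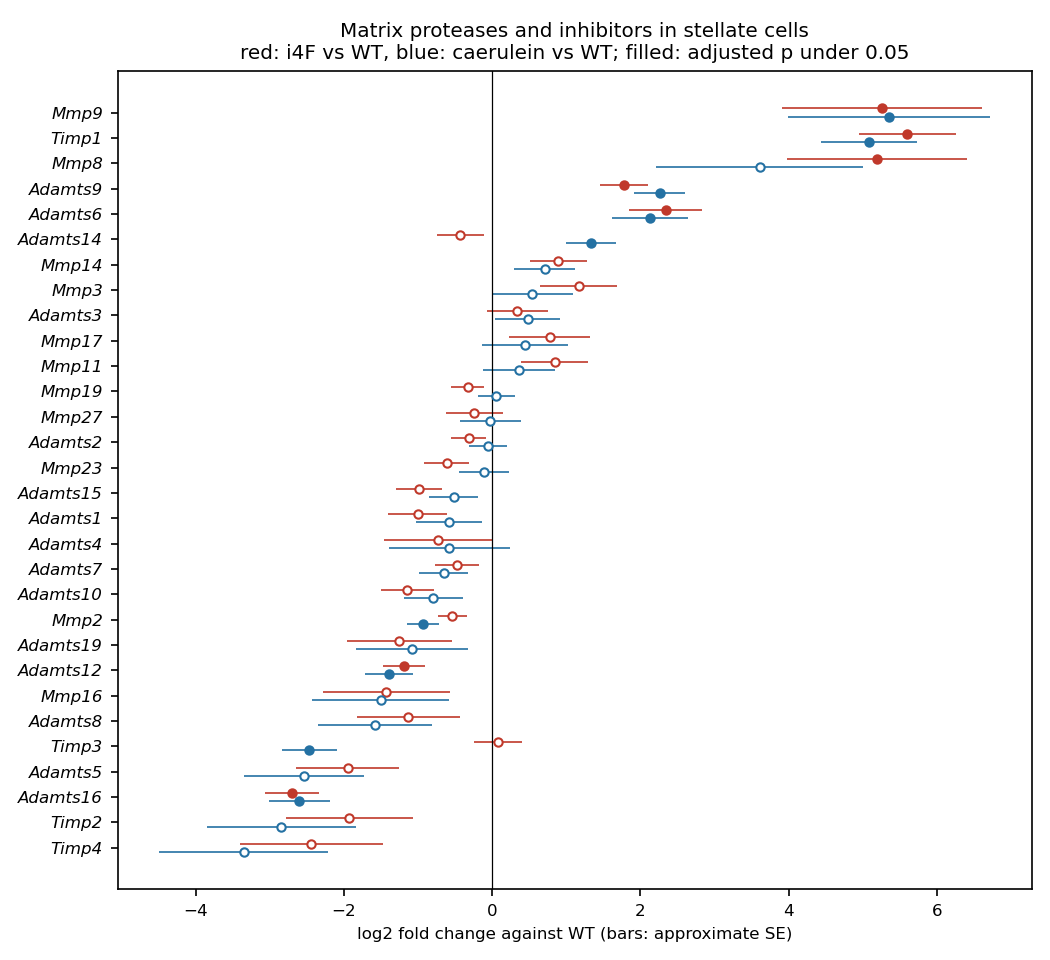
Log2 fold change against WT of the 30 members tested in stellate cells, in i4F (red) and caerulein mice (blue), ordered by the caerulein value; bars are approximate standard errors and filled points passed an adjusted p of 0.05. Timp1, Mmp9, Mmp8, Adamts9 and Adamts6 lie at the top and Timp2, Timp4, Adamts16 and Adamts5 at the bottom for both treatments, while Timp3 and Adamts14 are apart.

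Mmp8 and Mmp9, the collagenase and gelatinase of neutrophils, were called in stellate cells at very low levels. Mmp9 had 1 UMI over both WT mice, and its stellate level was 0 and 0.115 CPM in WT, 1.71, 1.55 and 6.43 CPM in i4F, and 3.62 and 2.26 CPM in caerulein mice, a ratio of pooled counts of 26.3 in i4F (95% exact interval 4.64 to 1047) and 45.4 in caerulein mice (8 to 1810). Mmp8 likewise had 1 UMI in WT stellate cells and a ratio of 42.9 in i4F mice (7.63 to 1704), with 2.75, 4.32 and 0.742 CPM. The intervals cover counting error only. The fitted changes were log2 fold change 5.26, adjusted p = 0.0376 and log2 fold change 5.36, adjusted p = 0.0416 for Mmp9 and log2 fold change 5.20, adjusted p = 0.0318 for Mmp8 in i4F mice. The Mmp8 contrast of caerulein mice passed only without library i4F 3 (adjusted p = 0.0996 with it and 0.0303 without it). Of the 6 neutrophil markers 3 were detected in WT stellate cells, where Ngp, Retnlg and S100a9 were at 0, 6 in i4F and 5 in caerulein mice. Their sum was 0.607 and 0.805 CPM in WT, 32 to 85.6 CPM in i4F and 18.5 to 33.9 CPM in caerulein stellate cells. It was higher in both treated groups than in WT, as both genes were. Among the i4F mice Mmp9 was highest and Mmp8 lowest in library i4F 3, so that these genes did not share an order. The part of the neutrophil markers in the result was not tested.

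The same genes were far higher in the macrophage labels that neutrophil genes lead. Mmp8 reached 1349 CPM in the neutrophil-led i4F label and 46.1 CPM in the caerulein one, and Mmp9 reached 592 and 1329 CPM. Mmp8 thus exceeded Mmp9 in the first of these labels and fell short of it in the second, a difference between 2 labels that was not tested. In the macrophage class Mmp8 was 0 and 0 CPM in WT, 18.6, 264 and 2.06 CPM in i4F, and 9.83 and 10.9 CPM in caerulein mice, with mouse i4F 2 the highest. The 4 monocyte markers summed to 647 and 140 CPM in WT, 2246, 12087 and 1370 CPM in i4F, and 778 and 986 CPM in caerulein macrophages, and the 6 neutrophil markers to 71.1 and 33.8 CPM, 207, 1692 and 37 CPM, and 112 and 102 CPM. The i4F mice had the same order for Mmp8 and both sums, whose part in the result was not tested.

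In ductal cells 21 members passed the filter. Mmp7 was the one that rose in caerulein mice. Its level was 29.5 and 29.6 CPM in WT, 725, 751 and 115 CPM in i4F, and 947 and 1047 CPM in caerulein mice, so that the caerulein mice and 2 of the i4F mice were more than 20 times higher than WT. The increase passed in caerulein (log2 fold change 5.24, SE 0.85, adjusted p = 0.0246) and not in i4F mice (log2 fold change 4.35, SE 0.79, adjusted p = 0.19), and it passed there without library i4F 3 (log2 fold change 4.83, SE 0.20, adjusted p = 3.39e-05). The acinar class, whose ductal markers summed to 1502 and 2308 CPM in WT and 3550 to 13452 CPM in treated mice, had 0 Mmp7 UMIs in WT, 82 in i4F, all of them in the second acinar label, and 137 in caerulein mice. That was at least 3.98-fold and at least 8.7-fold higher than a floor of 3 UMIs over the WT mice.

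Adamts1 fell in caerulein ductal cells (log2 fold change -1.75, SE 0.32, adjusted p = 0.0305), at 325 and 303 CPM in WT, 119, 154 and 221 CPM in i4F, and 70.1 and 97.2 CPM in caerulein mice, with no overlap between the 3 groups in that order. Adamts16 had 77.1 and 49.9 CPM in WT, 0, 2.47 and 25.5 CPM in i4F, and 0.806 and 4.92 CPM in caerulein mice (adjusted p = 0.257 in i4F, 0.083 in caerulein mice). Adamts16 was lower without library i4F 3 in i4F (log2 fold change -5.87, adjusted p = 0.00168) and caerulein mice (log2 fold change -4.83, adjusted p = 0.00139), and Adamts1 in i4F mice too (log2 fold change -1.02, adjusted p = 0.00989). With all mice, Mmp7 and Adamts1, the 2 called members of 21, stood beside 3.53% of all genes called in caerulein mice. In i4F mice edgeR called 0 of 21, beside 0.00861% of genes; 7 members had an unadjusted p under 0.05, beside 17.4% of genes, and DESeq2 called 3, beside 3.21%. Without library i4F 3 it called 14 of 21, beside 26.5% of genes, and 12 of 21 in caerulein mice, 4 higher and 8 lower, beside 32.2%. Between the treatments it called 0 of 21, beside 0.387% of genes, with 2 members under an unadjusted p of 0.05, beside 16.9% of genes, and 0 called by DESeq2, beside 2.27%; edgeR called 1 of 21 without that library, Timp1, beside 3.23%.

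In endothelial cells 13 members passed the filter. Mmp14 was at 5.25 and 8.94 CPM in WT, 111, 80.1 and 19.5 CPM in i4F, and 49.5 and 57.1 CPM in caerulein mice, higher in every treated mouse than in WT, and rose in caerulein mice (log2 fold change 2.95, SE 0.68, adjusted p = 0.0465; i4F log2 fold change 3.27, adjusted p = 0.0567, and log2 fold change 3.73, adjusted p = 0.00127 without library i4F 3). Adamts1 and Adamts9, the highest members there after Timp3, passed no contrast with all mice. Adamts1 had 867 and 734 CPM in WT, 1243, 1589 and 954 CPM in i4F, and 755 and 1149 CPM in caerulein mice. Adamts9 had 188 and 175 CPM in WT, 610.3, 851 and 347 CPM in i4F, and 228 and 298 CPM in caerulein mice. Without library i4F 3 both were higher in i4F than in WT mice (log2 fold change 0.86, adjusted p = 0.0454 for Adamts1, log2 fold change 2.04, adjusted p = 0.00225 for Adamts9), and Adamts9 was higher than in caerulein mice (log2 fold change 1.44, adjusted p = 0.0394). Mmp14 and Timp2 were the 2 members of 13 called in caerulein mice, beside 4.11% of genes. In i4F mice edgeR called 0 of 13, beside 0.81% of genes; 10 members had an unadjusted p under 0.05, beside 18.2% of genes, and DESeq2 called 4, beside 3.58%. Without library i4F 3 it called 8 of 14, beside 14.3% of genes, and 6 of 14 in caerulein mice, beside 11%. Between the treatments 0 of 13 were called, beside 0.601% of genes, with 6 under an unadjusted p of 0.05, beside 10% of genes, and 2 called by DESeq2, beside 1.46%; edgeR called 1 of 14 without that library, Adamts9, beside 0.911%.

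The elastase Mmp12 fell in macrophages of caerulein mice, and the collagenase Mmp13 fell in those of both treated groups. Mmp12 was 324 and 73.6 CPM in WT, 30.4, 25.5 and 417 CPM in i4F, and 3.52 and 2.92 CPM in caerulein mice. The caerulein mice were below all others (log2 fold change -5.70, SE 1.40, adjusted p = 0.0332), and the level was split among the i4F mice (log2 fold change -0.35, adjusted p = 0.884), of which library i4F 3 was the highest of all 7. Without that library Mmp12 fell in i4F mice too (log2 fold change -2.53, SE 0.56, adjusted p = 0.0255). Mmp13 was 139 and 69.6 CPM in WT, 11.5, 10.5 and 24.7 CPM in i4F, and 3.43 and 1.36 CPM in caerulein mice, with the groups in the order WT, i4F and caerulein and no overlap, and it fell in i4F (log2 fold change -2.79, SE 0.44, adjusted p = 0.0157) and in caerulein mice (log2 fold change -5.01, SE 0.51, adjusted p = 0.00224). WT values rest on 91 and 74 UMIs of Mmp12 and 39 and 70 UMIs of Mmp13.

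Other macrophage members rose in i4F mice. Mmp19 was 10.7 and 14.9 CPM in WT, 60.7, 118 and 51.4 CPM in i4F, and 24.6 and 19.5 CPM in caerulein mice (log2 fold change 2.70, SE 0.51, adjusted p = 0.0212). Mmp14 was 17.8 and 30.8 CPM in WT, 95.8, 64.5 and 61.7 CPM in i4F, and 54.5 and 31.2 CPM in caerulein mice (log2 fold change 1.66, SE 0.42, adjusted p = 0.0497). For both genes every i4F mouse exceeded both WT mice. Over the alternative settings the Mmp14 call was lost in 11 of 16 and the Mmp19 call in 6 of 16. Mmp19 was highest in mouse i4F 2, which also had the highest monocyte marker sum, and Mmp14 in mouse i4F 1. The part of the monocyte markers was not tested. Adamts5 fell in both contrasts on the fit (log2 fold change -3.26, adjusted p = 0.0362 and log2 fold change -5.00, adjusted p = 0.0104), but its WT value is 33 UMIs of mouse 2 and 0 of mouse 1, and without WT mouse 2 the sign turned in i4F (6.95, adjusted p = 0.637) and caerulein mice (5.18, adjusted p = 0.789). WT mouse 2 also had 2026 CPM of the 7 stellate markers in its macrophages, against 28.4 CPM in WT mouse 1, 115 to 365 CPM in i4F and 106 to 143 CPM in caerulein mice, and their part in the result was not tested. Timp3 in macrophages, 7.11 and 33.8 CPM in WT, 21.9, 25.2 and 49.4 CPM in i4F, and 4.3 and 1.75 CPM in caerulein mice, was lower in caerulein mice (log2 fold change -2.77, adjusted p = 0.0226) and likewise highest among WT mice in mouse 2, without which the call was lost (log2 fold change -0.89, adjusted p = 0.797).

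Of 19 members that passed the filter in macrophages, 3 rose and 2 fell in i4F mice, beside 2.95% of genes higher and 3.13% lower (6.08% in either direction), and 0 rose and 4 fell in caerulein mice, beside 9.44% of genes called. Without library i4F 3, 7 of 20 were called in i4F mice, beside 11.6% of genes, 5 of 20 in caerulein mice, beside 12.3%, and 7 of 20 between the treatments, beside 10.1%. Between i4F and caerulein mice 5 of 19 were called, all higher in i4F mice, beside 6.98% of genes. They were Mmp12 (log2 fold change 5.36, adjusted p = 0.0427), Timp3 (log2 fold change 3.04, adjusted p = 0.0098), Mmp3 (log2 fold change 2.31, adjusted p = 0.0331), Mmp13 (log2 fold change 2.22, adjusted p = 0.0217) and Mmp19 (log2 fold change 1.89, adjusted p = 0.0195). The Mmp12 difference was smaller without library i4F 3 and still passed (log2 fold change 3.14, SE 0.59, adjusted p = 0.0164). Mmp3 was at 3.44, 2.85 and 2.06 CPM in i4F and 0.64 and 0.585 CPM in caerulein macrophages and at 0 in WT. Since the i4F and caerulein libraries carry different name prefixes, that difference and the treatment cannot be told apart in this comparison other than through the WT mice, and 0 of 19 were called with the prefix as a term, beside 0.0% of genes. With every macrophage label included, 1 of 21 members was called between the treatments, beside 1.67% of genes, and 0 of 21 between i4F and WT mice, beside 0.00828%.

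**Figure D5:**
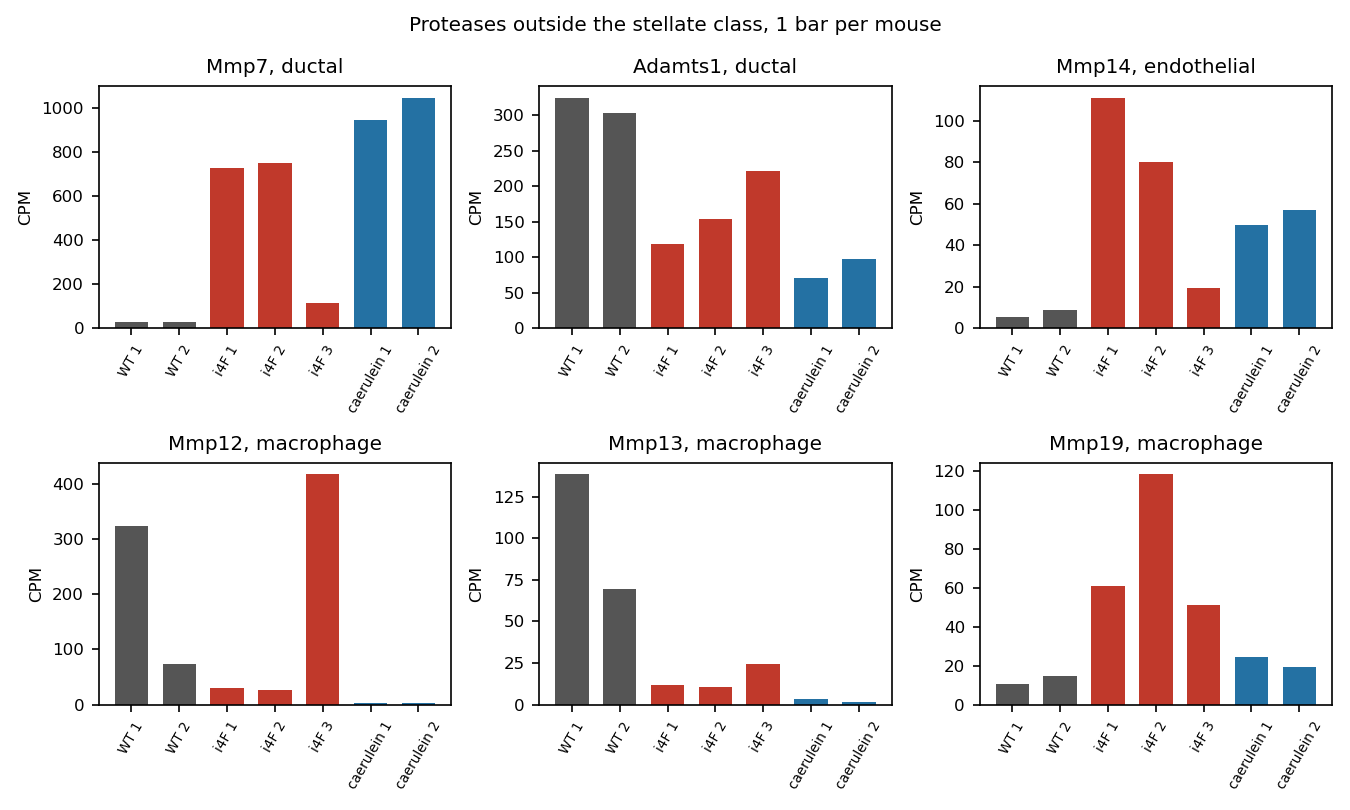
CPM of 6 proteases in the class where they were called against WT, 1 bar for each mouse (grey, WT; red, i4F; blue, caerulein). Mmp7 in ductal cells and Mmp14 in endothelial cells are higher in every treated mouse, Adamts1 in ductal cells and Mmp13 in macrophages are lower, and Mmp12 in library i4F 3 exceeds the WT mice.

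In acinar cells 17 members passed the filter and edgeR called 0 of them in any contrast, beside 0.0808% of genes in i4F, 0.0359% in caerulein and 0.126% between the treatments. In each of the contrasts against WT 5 members had an unadjusted p under 0.05, beside 25.1% of genes in i4F and 21.9% in caerulein mice, and DESeq2 called 2, beside 9.95% and 8.14%. Between the treatments these numbers were 2, beside 18.8%, and 0, beside 5.43%. The class held different labels in different i4F mice. The second label, led by keratinization genes, gave 583 of 594 cells in mouse i4F 1, 746 of 807 in mouse i4F 2 and 59 of 2130 in library i4F 3, and the first label gave 11, 61 and 2071, so that a difference of i4F from WT mice in this class cannot be told apart from a difference of label. Timp1, the member with the highest mean in this class, was 11.7 and 8.56 CPM in WT, 1466, 748 and 72 CPM in i4F, and 357 and 436 CPM in caerulein mice, and passed without library i4F 3 in i4F (log2 fold change 6.42, adjusted p = 2.45e-05) and caerulein mice (log2 fold change 4.69, adjusted p = 0.000125). In the second label of the i4F mice it was 1473, 748 and 582 CPM, and in the first 461, 747 and 17.3 CPM. Without the second label, which leaves mice i4F 2 and i4F 3, the Timp1 contrasts did not pass (log2 fold change 4.92, adjusted p = 0.289 in i4F, log2 fold change 4.73, adjusted p = 0.0566 in caerulein mice). That choice, made after seeing the data, called 0 of 15 members in i4F mice, beside 0.0% of genes, 1 in caerulein mice (Mmp7), beside 9.64%, and 1 between the treatments (Mmp23), beside 3.5%. Timp3 had 56 and 62.4 CPM in WT, 87.5, 34.5 and 37.1 CPM in i4F, and 27.5 and 55.3 CPM in caerulein mice. Mmp15, a membrane-bound enzyme that was highest in ductal cells of WT and i4F mice, had 22.2 and 17.1 CPM in WT, 15, 7.16 and 14.5 CPM in i4F, and 27.8 and 40.5 CPM in caerulein mice, and differed between the treatments only without library i4F 3 (log2 fold change -1.38, adjusted p = 0.0222). Without library i4F 3, 5 of 17 were called in i4F mice, beside 32.7% of genes, 2 of 17 in caerulein mice, Timp1 and Mmp7, beside 19.4%, and 5 of 17 between the treatments, beside 22.5%. The last were Timp1, higher in i4F mice, and Adamts1, Adamts4, Adamts10 and Mmp15, lower. The acinar markers of the class summed to 21518 and 22569 CPM in WT, 1833 to 12198 CPM in i4F and 1226 to 1477 CPM in caerulein mice, so that the cells summed under this label differed in their own markers.

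Summed over all cells, a change in a member can come from fewer cells of a type or from less RNA per cell, which cannot be told apart in such sums. In caerulein mice 6 of 39 members were called, beside 9.08% of genes. Timp1 (log2 fold change 4.85, adjusted p = 0.0475) and Mmp7 (log2 fold change 2.86, adjusted p = 0.0279) rose, and Timp3 (log2 fold change -2.79, adjusted p = 0.0322), Adamts5 (log2 fold change -2.04, adjusted p = 0.0432), Adamts16 (log2 fold change -4.75, adjusted p = 0.0422) and Adamts18 (log2 fold change -3.83, adjusted p = 0.0465) fell. In i4F mice edgeR called 0 of 39, beside 0.0% of genes; 9 members had an unadjusted p under 0.05, beside 34.8% of genes, DESeq2 called 9, beside 23.8%, and without library i4F 3 edgeR called 20 of 39, beside 49.8% of genes, and 20 of 39 in caerulein mice, beside 46.4%. Adamts18 rests on 44 UMIs in all libraries, and it fell where the endocrine markers summed to 8605 and 9634 CPM in WT, 163 to 3134 CPM in i4F and 323 to 892 CPM in caerulein mice.

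The 2 library-name prefixes left 1 WT mouse beside each treated group. Every i4F mouse lay beyond WT mouse 1, which shares their prefix, for 11 of the 12 calls of a member in a cell class against WT, and both caerulein mice lay beyond WT mouse 2 for 17 of 17. The same held for 98.4% of all 3683 genes called in i4F and for 4139 of all 4140 called in caerulein mice, so that the calls nearly fix this count. The exception was Adamts5 in macrophages, where WT mouse 1 was at 0. With the prefix as a term edgeR called 0 members in i4F and 7 in caerulein mice over the 5 classes, beside 0.0796% and 2.03% of genes. Without WT mouse 2, which leaves 1 WT mouse, it called 0 and 1, beside 0.0996% and 0.492%.

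Whether a treatment acted differently on 2 cell classes was tested in joint fits with the mouse as a term, a test chosen after the data had been seen. The log2 fold change of Timp2 was higher in endothelial than in stellate cells in i4F (difference of log2 fold changes 3.79, adjusted p = 0.0157) and caerulein mice (5.41, adjusted p = 0.00349), and so was that of Mmp14 (2.45, adjusted p = 0.018 and 2.33, adjusted p = 0.0195). The sum of the macrophage markers in the endothelial class, given above, was also higher in both treated groups than in WT mice. It was higher in caerulein than in i4F mice, an order that endothelial Timp2 shared and endothelial Mmp14 did not. The part of these markers in the results was not tested. Of 12 members tested, 5 differed in i4F mice, beside 5.77% of genes, and 3 in caerulein mice, beside 8.13%. These were 8 of 14, beside 20.3%, and 8 of 14, beside 20.8%, when library i4F 3 was left out. Between ductal and stellate cells Adamts9 differed in i4F (-2.41, adjusted p = 0.0294) and caerulein mice (-3.43, adjusted p = 0.0135). Its ductal level was 68.6 and 54.2 CPM in WT, 22, 29.6 and 53 CPM in i4F, and 21.8 and 24.6 CPM in caerulein mice, lower in each treated mouse than in both WT mice, whereas its stellate level was higher. The ductal contrasts passed only without library i4F 3 (adjusted p = 0.0133 and 0.00616). Of 19 members tested, 1 differed in i4F mice, beside 1.66% of genes, and 2 in caerulein mice, beside 1.97%, and without that library 13 of 20, beside 26.7%, and 11 of 20, beside 22.3%.

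The plasminogen system and other partners of these enzymes were taken as a list of 25 genes. In stellate cells 3 of 23 were higher in i4F mice and 0 lower, namely Adam12, Plaur and Serpinb2, which was at 0 in WT. Of all genes 11.8% were higher and 7.86% lower in that contrast, so that the share of the list was near the share of all genes. When library i4F 3 was left out 6 of 23 were lower, Fap, Pcsk6, Plau, Reck, Serpine2 and Thbs1. Those higher included A2m, Adam8, Adam10, Adam12, Furin, Pcsk5, Plaur, Serpinb2 and Thbs2. The share of the list called in either direction was then above the 47.0% of all genes. No test set the list against other genes. Plaur, the receptor that holds the urokinase-type plasminogen activator at the cell surface, stood at 18.4 and 14.3 CPM in WT, 102, 91.2 and 58.1 CPM in i4F, and 67.2 and 61.9 CPM in caerulein mice (log2 fold change 2.50, adjusted p = 0.0153 and log2 fold change 2.12, adjusted p = 0.0149). Adam12, a membrane-anchored sheddase, was 4.65 and 5.18 CPM in WT, 63.1, 60.1 and 19.1 CPM in i4F, and 75.8 and 104 CPM in caerulein mice (log2 fold change 3.39, adjusted p = 0.0206 and log2 fold change 4.29, adjusted p = 0.0149). Serpine2, an inhibitor of plasminogen activators and thrombin, fell in caerulein mice, at 794 and 786 CPM in WT, 176, 326 and 439 CPM in i4F, and 203 and 186 CPM in caerulein mice (log2 fold change -1.89, adjusted p = 0.0326). In caerulein mice Adam8 was called too, higher in stellate cells (log2 fold change 2.89, adjusted p = 0.0259).

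In macrophages of caerulein mice 1 of 18 rose, Lrp1, and 4 fell, Adam19, Fap, Plau and Serpine2, beside 9.44% of all genes called in either direction. Serpine2 had 3.56 and 66.6 CPM in WT, 3.64, 10.6 and 2.06 CPM in i4F, and 5.03 and 2.92 CPM in caerulein mice, so that its WT level came mostly from mouse 2, which also held the stellate markers given above, and their part in the result was not tested. Without WT mouse 2 its direction turned (log2 fold change 0.41, adjusted p = 0.935), and the other 4 kept their direction and lost the call (adjusted p = 0.313 to 0.559), with 1 WT mouse left. For Plau the log2 fold change was then -1.02 (adjusted p = 0.533) in i4F and -1.26 (adjusted p = 0.428) in caerulein mice, and for Adam19 it was -1.07 in caerulein mice. In i4F macrophages Adam19 (log2 fold change -2.98, adjusted p = 0.00914) and Plau fell and Furin, a proprotein convertase (log2 fold change 0.92, adjusted p = 0.0474), and Serpinb2, with 3.56 and 0 CPM in WT, 51.4, 167 and 37 CPM in i4F, and 11 and 4.09 CPM in caerulein mice, rose (adjusted p = 0.029), and these calls too were lost without WT mouse 2 (adjusted p = 0.213 for Adam19, 0.177 for Furin, 0.311 for Serpinb2). Between the treatments Furin (log2 fold change 0.99, adjusted p = 0.0282), Plat (log2 fold change 1.90, adjusted p = 0.0116) and Serpinb2 (log2 fold change 3.51, adjusted p = 0.0199) were higher in i4F macrophages. Adam19 was lower there (log2 fold change -1.29, adjusted p = 0.0456). Of all genes 6.98% were called in that comparison, and 0 of 12272 with the library prefix as a term. Plau, the urokinase-type plasminogen activator, fell in both treated groups, at 56.9 and 155 CPM in WT, 28.7, 14.1 and 43.2 CPM in i4F, and 24.2 and 17.9 CPM in caerulein mice (log2 fold change -2.02, adjusted p = 0.0361 and log2 fold change -2.30, adjusted p = 0.0213). In caerulein endothelial cells Lrp1 (log2 fold change 3.33, adjusted p = 0.0307) and Adam8 (adjusted p = 0.0129) were higher, where the macrophage markers given above also were. With all mice no gene of the list was called in ductal or acinar cells. Of all genes 0.00861% to 3.53% were called in the ductal contrasts and 0.0359% to 0.126% in the acinar ones. Some of the list were called when library i4F 3 was left out, such as Plat and Adam8, both higher, in ductal cells of i4F and caerulein mice. Of all genes tested in ductal cells 26.5% in i4F and 32.2% in caerulein mice were then called. Reck, a membrane-anchored inhibitor of metalloproteinases, was called with all mice over all cells only, where it was 16.5 and 17.5 CPM in WT, 3.8, 4.42 and 8.4 CPM in i4F, and 2.53 and 2.98 CPM in caerulein mice (log2 fold change -2.24, adjusted p = 0.04 in caerulein mice).

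The remaining members were scarce. Mmp1a and Mmp1b, paralogous collagenase genes, had 1 UMI each in all 7 libraries, Mmp20 had 3 and Adamts13, the enzyme that cuts von Willebrand factor, had 15. Adamts20, Adamts17 and Adamts19 had 82, 85 and 146 UMIs. Mmp24, a membrane-anchored enzyme, had 47 UMIs and was highest in the endocrine labels of WT and i4F mice, at 4.67 and 9.66 CPM. Mmp27 had 328 UMIs and was highest in the first macrophage label of caerulein mice, at 6.69 CPM, where WT macrophages had 0, at least 2.3-fold above a floor of 3 UMIs over the WT mice.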

How the data were processed

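The whole count tables were used, with whole-number UMI counts deposited by the authors per gene and cell, 1 table per group, together with the deposited annotation of cells. The submitters' notes name Cell Ranger and mm10. The methods state ambient RNA correction with SoupX, and whether it preceded deposit is not given in the sources used here. The deposited annotation gives the percent of mitochondrial UMIs per cell, on which the authors had filtered at 5%, and cells had at least 150 genes. No further cell filter or doublet removal was applied.

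UMIs were summed per mouse and class (at least 20 cells). Differences were tested with edgeR 4.0.16 (TMM, filterByExpr, quasi-likelihood, 7 mice in 1 fit, Benjamini-Hochberg over all genes, threshold 0.05). Standard errors are approximate, derived from the fold change and the F statistic, and are not printed where WT was at or near 0. The p-values measure the spread between these mice. The script was tested on simulated data. R 4.3.3, DESeq2 1.42.0 and Python 3.11.15 were used. Alternatives were DESeq2, other filters and scalings, blocks, label choices and leaving out each mouse.

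The members, the related genes and the markers were chosen with earlier results of these data known. Named with values were members past the threshold, each Timp, the 3 highest per class and, by their peak, those reaching 20 CPM in a label. Any other gene was named after its values were seen. Results of 1 related gene are not reported here. Library names, not dates, define the prefix. Sequences are RefSeq GRCm38.p6 promoters. Intervals are exact and cover counting error only.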

Additional observations from a re-analysis of the deposited data

Results flagged for a closer look

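In macrophages 5 members were higher in i4F than in caerulein mice, tested directly (log2 difference 5.36 for Mmp12, 3.04 for Timp3, 2.31 for Mmp3, 2.22 for Mmp13 and 1.89 for Mmp19). Mmp12, Mmp13 and Timp3 fell in caerulein mice against WT, so for them the difference does not mean a larger effect of i4F. Library i4F 3 held 417 CPM of Mmp12 against 30.4 and 25.5 CPM in the other i4F mice, and without it the Mmp12 comparison gave log2 fold change 3.14, SE 0.59, adjusted p = 0.0164 by edgeR's quasi-likelihood test. The treatments also differ in library-name prefix.

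The effect against WT differed between endothelial and stellate cells in the joint fits. In i4F mice the log2 fold change was higher in endothelial cells for Timp4 (4.95, adjusted p = 0.0441), Timp2 (3.79), Adamts4 (2.82, adjusted p = 0.0444), Mmp14 (2.45) and Adamts1 (1.97, adjusted p = 0.0429). Endothelial Timp4 rested on 17 UMIs over the WT and 26 over the i4F mice. In caerulein mice it was higher for Timp2 (5.41), Mmp14 (2.33) and Timp3 (1.5, adjusted p = 0.0457). These are edgeR quasi-likelihood tests with Benjamini-Hochberg adjustment.

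Between ductal and stellate cells the log2 fold change of Adamts9 was lower in ductal cells in i4F (-2.41) and caerulein mice (-3.43), and that of Adamts6 was lower in caerulein mice (-5.01, adjusted p = 0.041). Ductal Adamts6 had 111 UMIs over the WT and 3 over the caerulein mice. The joint fits were chosen after seeing the data, and both contrasts share the WT mice.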

How the results depend on the processing

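Over the 5 classes the reported fits called 12 member results for i4F against WT, 17 for caerulein against WT and 5 between the treatments, and over all cells 0 and 6 against WT. DESeq2 called 25, 26, 9, 9 and 11. Without a filter on low counts the numbers were 41, 46 and 22, and 9 in all cells for i4F. With 2 groups in each fit they were 1 for i4F and 40 for caerulein, and 18 in all cells for caerulein. With the library prefix as a term they were 0, 7 and 0, and 0 in all cells for caerulein. Scaling by library size alone gave 6 and 10 in all cells. TMM moved every log2 fold change against WT by 0.08 to 0.17 in stellate, endothelial, ductal and macrophage cells, by -0.59 to -0.14 in acinar cells and by 0.38 and 0.39 over all cells, relative to that scaling, and reversed none of the 40 gene results below. A difference smaller than this shift, such as 0.07 for Timp3 in stellate cells of i4F mice, has no settled sign. With every macrophage label they were 7 for i4F and 1 between the treatments. Without the second i4F activated label, a choice made after seeing the data, they were 22 and 10. The replicate block gave 49, 38 and 14, and 19 and 18 in all cells. Library i4F 3 shares its number with no other mouse, so the block absorbs it. No label pairs the mice, and the deviations of same-numbered mice correlated at -0.1 to 0 between WT and i4F and at -0.37 to -0.19 between WT and caerulein mice. A crossed block for WT and caerulein, added after seeing the data, gave 43 and 20.

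Leaving out 1 mouse at a time gave 0 (without WT mouse 2) to 56 (without i4F mouse 3) calls for i4F, 1 to 42 for caerulein (the same mice), 0 (without caerulein mouse 1) to 22 (without i4F mouse 3) between the treatments, and 0 to 20 in all cells for each contrast with WT. Of 663 alternatives run on 40 gene results, 415 stayed on the same side of the threshold, 243 lost the call and 5 reversed. With the WT activated label alone Adamts9 in stellate cells turned to -0.13 in i4F and Mmp2 to 3.56 in caerulein mice. The result Adamts5 macrophage i4F vs WT turned to 6.76 with the prefix term. Its values with 1 mouse left out ran from -3.81 to 6.95 in i4F and from -5.63 to 5.18 in caerulein mice, the highest both without WT mouse 2, the library that holds its WT UMIs. For the other changes the cause was not tested. Mmp13 in macrophages of caerulein mice kept its call in all 17 alternatives, at -6.11 to -4.4. The values of WT mouse 1 in macrophages rest on 45 cells, the fewest of any mouse in that class.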
